A study of Mus musculus with 12 samples.

Results

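The amyloid precursor family (App, Aplp1 and Aplp2) and 5 genes used as markers of growing or immature neural cells (Gap43, Nes, Ncam1, Ngfr and Stmn2) were followed in cultured mouse cardiac stem cells. The 8 genes were picked by symbol from a table of 34174 genes, each symbol matched 1 row, and all 8 passed the filter on low values. They were put together with the difference between the genotypes in these same cultures already known. Their levels and differences are therefore given as a description, and how many pass the threshold used for all genes is given as a count that supports nothing.

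Cardiac stem cells were expanded from heart tissue on gelatin, in medium with serum and at 21% oxygen, from C57BL/6 mice of 2 genotypes. One group is wild-type. The other carries c-kitCre, an allele in which the gene of the Cre recombinase was placed in the Kit locus, so that Cre is made where Kit is transcribed. Each genotype has 3 numbered cultures with 2 total RNA libraries each, and the table used here holds 1 value per culture and gene, so n = 3 per group. The labels give neither the age of the animals nor whether the cultures of a genotype came from separate animals, and p-values measure only the spread between these cultures.

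The amyloid precursor protein and its relatives are single-pass membrane proteins. Their ectodomains are shed by alpha- or beta-secretases, and gamma-secretase, an intramembrane protease complex, then cuts the remaining stub. App and Aplp2 are made in most tissues, while Aplp1 is known mainly from neurons. Only App holds the amyloid beta peptide. Gap43 is a membrane-attached phosphoprotein of growth cones, Stmn2 a tubulin-binding protein of growing axons, Nes (nestin) an intermediate filament of neural and muscle progenitors, Ncam1 a cell adhesion molecule of the immunoglobulin family, and Ngfr the p75 receptor of neurotrophins and a surface marker of neural crest derivatives.

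The raw values of a culture summed to between 22371439 and 35963488. Levels are in scaled reads, that is the raw value of a culture times the factor of that culture in the authors' normalized values, and the authors' log2 values of genes that are low in some cultures and high in others level off at 4.41 scaled reads, called the floor here. Near it the log2 values do not follow the scaled reads, and the order of cultures can differ between the scales. Kit, which carries Cre, stood at 1.17 to 3.38 scaled reads in the wild-type cultures and at 1603 to 1738 in the c-kitCre cultures, against what the labels predict, so every direction below rests on the labels. Wild-type culture 1 stood apart: in 82.4% of 13456 genes averaging at least 50 scaled reads it was the wild-type culture farthest from the other two, and in the other group culture 2 was the farthest in 58.8%. The 8 progenitor markers summed to 4828 to 6280 scaled reads in wild-type and 11970 to 14043 in c-kitCre, but they did not move together. At an adjusted p under 0.05 (limma) 5 rose and 1 fell (75% called, against 35.5% of all genes). Pdgfra stood at 329 to 1065 in wild-type and 7383 to 9153 in c-kitCre. Ly6a, which fell, stood at 2784 to 3307 and 687 to 778. Abcg2, Gata4 and Isl1 were also measured in both groups. Hand2 stood at 0.72 to 3.09 and Tbx5 at 4.65 to 8.04 in wild-type, against 310 to 371 and 228 to 306 in c-kitCre, and Nkx2-5 stayed at or under 17.2. The 6 mast cell markers summed to at most 3.31 scaled reads in any culture, and of the leukocyte markers Ptprc reached at most 2.40 and Itgam 13.0, while Cd68 stood at 124 to 329. The 4 cardiomyocyte markers summed to 1478 to 3618 scaled reads in wild-type and 138 to 152 in c-kitCre, most of it Tnnt2. The 6 mesenchymal markers summed to 103333 to 166265 in wild-type and 244924 to 374336 in c-kitCre, and 3 rose and 1 fell (66.7% called, against 35.5% of all genes). Vim made up most of the wild-type sum, at 85785 to 156580 against 122485 to 212313 in c-kitCre. Neither Vim nor Pdgfrb passed. Thy1 stood at 2.67 to 4.69 against 3096 to 3547, and Col1a2 at 3103 to 3714 against 65968 to 97014, whereas Eng fell. The part of these markers in the differences below was not tested.

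Coordinates are those of mouse build mm10, with the GENCODE M21 annotation. App (ENSMUSG00000022892) spans chromosome 16 from 84949685 to 85173766, Aplp1 (ENSMUSG00000006651) chromosome 7 from 30434982 to 30445535 and Aplp2 (ENSMUSG00000031996) chromosome 9 from 31149557 to 31211815, all on the minus strand. Gap43 (ENSMUSG00000047261) lies on chromosome 16 from 42248442 to 42340651 and Ncam1 (ENSMUSG00000039542) on chromosome 9 from 49502136 to 49798925, both on the minus strand. Nes (ENSMUSG00000004891) lies on chromosome 3 from 87971078 to 87980451 and Stmn2 (ENSMUSG00000027500) on chromosome 3 from 8509360 to 8561606, both on the plus strand, and Ngfr (ENSMUSG00000000120) on chromosome 11 from 95568818 to 95587735 on the minus strand. Whether counting used strand is not stated. The exons of App and Ncam1 overlap those of an antisense gene each, Gm49227 and Gm11149, so their reads could include such transcripts. Gm11149 measured at most 74.1 scaled reads, and Gm49227 was not analysed here.

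RefSeq's promoter table (build GRCm38.p6) held 5 of the 8 genes. The sequences before the start are shown for the family, whose members differed most in level, and for Nes, the other gene with a listed promoter that was higher in the c-kitCre cultures. Gap43, Ncam1 and Stmn2 had no entry. Each sequence reads 5′ to 3′ on the gene's own strand and ends before the first annotated base of the transcript, and capitals mark GGGCGG, the core of a GC box, on either strand.
Aplp1, chr7:30445583-30445832, minus strand: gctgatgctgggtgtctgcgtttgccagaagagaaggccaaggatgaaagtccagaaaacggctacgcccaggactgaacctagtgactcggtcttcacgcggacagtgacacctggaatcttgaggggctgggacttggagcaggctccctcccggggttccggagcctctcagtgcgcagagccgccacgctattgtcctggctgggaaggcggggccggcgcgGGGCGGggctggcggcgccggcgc
App, chr16:85173767-85173957, minus strand: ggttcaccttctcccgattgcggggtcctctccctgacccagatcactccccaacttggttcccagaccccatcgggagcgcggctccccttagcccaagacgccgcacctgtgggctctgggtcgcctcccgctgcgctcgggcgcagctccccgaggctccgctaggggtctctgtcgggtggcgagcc
Aplp2, chr9:31211849-31212098, minus strand: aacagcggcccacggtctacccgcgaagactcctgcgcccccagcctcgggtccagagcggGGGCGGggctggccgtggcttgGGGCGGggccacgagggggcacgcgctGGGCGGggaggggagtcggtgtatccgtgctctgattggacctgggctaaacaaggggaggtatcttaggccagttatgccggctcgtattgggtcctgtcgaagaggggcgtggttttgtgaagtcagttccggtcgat
Nes, chr3:87970843-87971077, plus strand: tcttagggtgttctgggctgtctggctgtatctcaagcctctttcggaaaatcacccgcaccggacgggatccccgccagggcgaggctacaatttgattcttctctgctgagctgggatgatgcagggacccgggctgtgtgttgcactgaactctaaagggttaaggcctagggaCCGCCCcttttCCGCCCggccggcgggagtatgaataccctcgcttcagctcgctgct

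In the 250 bases before the RefSeq start, the 3 family promoters were all rich in G and C. The share of G and C was 66.0% for Aplp1, 70.8% for App and 66.4% for Aplp2, against a median of 52.4% over 32851 promoters, and they held 20, 23 and 22 CG pairs against a median of 6. GGGCGG occurred 1 time before Aplp1, 1 time before App (in the bases between the starts of the RefSeq and GENCODE annotations, which are not shown), 3 times before Aplp2 and 2 times before Nes, and 32.7% of all promoters hold it. The TATA box motif TATAAA was searched on both strands and does not occur in these 4 windows, while 12.4% of all promoters hold it. The same search for ACGTG, the core bound by hypoxia-inducible factors, found none in these windows, and 16.6% of all promoters hold it.

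Aplp1 was almost absent from the wild-type cultures and abundant in the c-kitCre cultures, whereas App and Aplp2 were abundant in both. Aplp1 measured 2.76, 0 and 3.03 scaled reads in wild-type cultures 1, 2 and 3, and 2421, 3197 and 1933 in c-kitCre cultures 1, 2 and 3. Every c-kitCre culture lay far above every wild-type culture, and all 3 wild-type values were at the floor of the authors' log2 scale. On that scale the difference was 9.13 ± 0.27 (SE, n = 3 per group), and the authors' deposited table gives it as a fold of 559 with c-kitCre higher. The floor limits both values. Only 10 of the 24151 genes tested had a larger positive difference.

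App, the amyloid precursor gene itself, measured 6555, 6178 and 6086 scaled reads in the wild-type cultures and 6929, 8161 and 6080 in the c-kitCre cultures. The groups overlapped, since c-kitCre culture 3 lay just under the lowest wild-type culture. The log2 difference was 0.16 ± 0.14 (SE), a fold of 1.12. Aplp2, the other widely expressed relative, measured 5317, 3682 and 3581 scaled reads in wild-type and 4880, 6321 and 4151 in c-kitCre. Here wild-type culture 1 lay within the range of the c-kitCre cultures, and the difference was 0.29 ± 0.23 (SE, log2). The sign for both genes depended on the scaling, since centring each culture on its median over all genes, which moved the median difference of all genes from 0.04 to -0.31, gave -0.19 for App and -0.06 for Aplp2. App varied little between cultures of a group: its residual SD of 0.16 on the log2 scale lay at the 15.9th percentile of the 13456 genes averaging at least 50 scaled reads, where the median was 0.28. The residual SDs of Aplp1 and Aplp2 were 0.26 and 0.31.

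**Figure D1:**
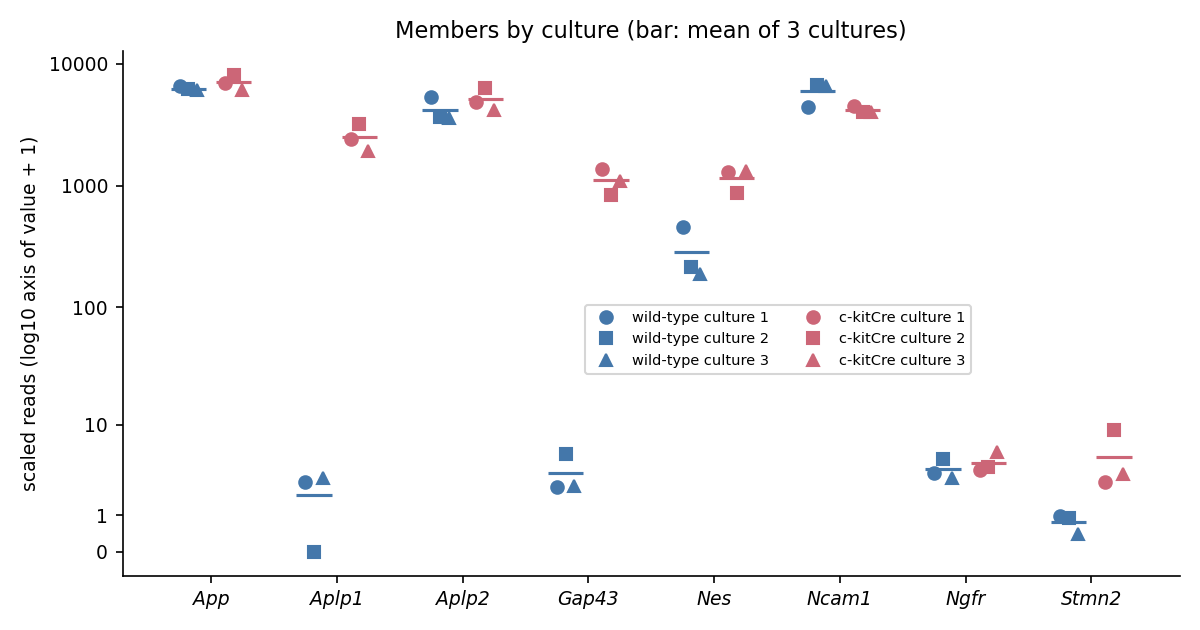
Scaled reads of the 8 genes in each of the 6 cultures, on a log10 axis of the value plus 1; blue is wild-type, red is c-kitCre, symbols give the culture number and bars the mean of 3 cultures. Aplp1 and Gap43 lie under 6 scaled reads in every wild-type culture and at 848 or more in every c-kitCre culture, App, Aplp2 and Ncam1 lie at 3581 or more in both groups, and Ngfr and Stmn2 lie under 10 throughout.

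Levels of different genes were set beside each other per kilobase of the longest annotated transcript. On this measure the family consisted of App and Aplp2 in the wild-type cultures and of all 3 genes in the c-kitCre cultures. Wild-type cultures 1, 2 and 3 held 803, 756 and 745 scaled reads per kilobase of App, and 1463, 1013 and 985 of Aplp2. The c-kitCre cultures held 848, 999 and 744 of App, 1343, 1740 and 1142 of Aplp2, and 979, 1293 and 782 of Aplp1. Aplp1 made up 30.9%, 32.1% and 29.3% of the summed level of the family in c-kitCre cultures 1, 2 and 3, and at most 0.0708% in any wild-type culture. The order in each c-kitCre culture was Aplp2, Aplp1, App with the longest transcript and with the union of exons. Both lengths are far greater for App (8167 and 12996 bases) than for Aplp2 (3634 and 5875) or Aplp1 (2472 and 3017). Undivided by length, App had the most scaled reads of the family in each c-kitCre culture, at 6929, 8161 and 6080. Which transcripts the cells made is not known, and a shorter App transcript would raise its level. The order and the shares thus rest on these lengths, and the sizes depended on the length used. The ratio of Aplp1 to App was 1.05 to 1.29 with the longest transcript and 1.37 to 1.69 with the union of exons. That of Aplp1 to Aplp2 was 0.68 to 0.74 and 0.91 to 0.98.

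Within a culture the ratio of 2 genes does not depend on how that culture was scaled. The raw value of Aplp1 was 0.349, 0.392 and 0.318 of that of App in c-kitCre cultures 1, 2 and 3, and at most 0.000498 of it in wild-type. The raw ratio of Aplp2 to App was 0.811, 0.596 and 0.588 in wild-type cultures 1, 2 and 3 and 0.704, 0.775 and 0.683 in the c-kitCre cultures. The groups overlapped in this ratio through wild-type culture 1 alone. In scaled reads all 3 family genes had the same order of cultures within c-kitCre, with culture 2 highest and culture 3 lowest. That order depends on the scaling, since the factor of culture 2 was 1.52 and in raw values culture 1 was highest for each. How many other genes have this order was not counted, and nothing is read from it.

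**Figure D2:**
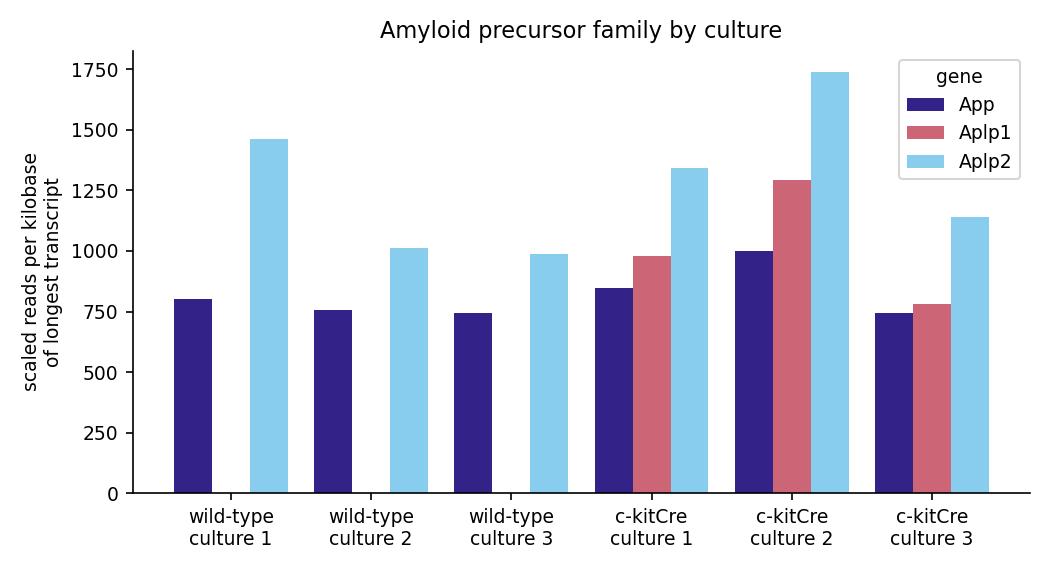
Scaled reads per kilobase of the longest transcript for App, Aplp1 and Aplp2 in each culture; each bar is 1 gene in 1 culture. Aplp1 is too low to be seen in the wild-type cultures and lies between 782 and 1293 in the c-kitCre cultures, between App and Aplp2.

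Gap43, the growth cone protein, had the same pattern as Aplp1. It measured 2.39, 5.36 and 2.48 scaled reads in the wild-type cultures and 1373, 848 and 1095 in the c-kitCre cultures. No values of the groups came near each other, and the log2 difference was 7.83 ± 0.29 (SE), a fold of 227 in the authors' deposited table. Within c-kitCre its order of cultures in scaled reads was not that of Aplp1: culture 2, the highest for Aplp1, was the lowest for Gap43. The raw ratio of Gap43 to App was 0.198, 0.104 and 0.180 in c-kitCre cultures 1, 2 and 3.

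Nes, the nestin gene, was present in both groups and higher in c-kitCre. It measured 457, 215 and 188 scaled reads in the wild-type cultures and 1292, 867 and 1317 in the c-kitCre cultures. The lowest c-kitCre culture, number 2, still lay above wild-type culture 1, the highest of its group. The log2 difference was 2.11 ± 0.37 (SE), a fold of 4.31, and it was 2.50 without wild-type culture 1. Its residual SD, 0.55 on the log2 scale, lay at the 86.1st percentile of genes averaging at least 50 scaled reads.

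Ncam1, the neural cell adhesion molecule, was the gene with lower values in c-kitCre. It measured 4462, 6743 and 6600 scaled reads in the wild-type cultures and 4540, 3992 and 3997 in the c-kitCre cultures. Wild-type culture 1 lay among the c-kitCre cultures, so the groups overlapped. The log2 difference was -0.48 ± 0.19 (SE), and -0.68 without wild-type culture 1. Per kilobase, Ncam1 stood at 680, 1027 and 1006 scaled reads in the wild-type cultures, below App in culture 1 and above it in cultures 2 and 3. With the union of exons the order in culture 1 turned, at 515 for Ncam1 and 504 for App. It stood at 692, 608 and 609 in the c-kitCre cultures, below App in each.

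Ngfr and Stmn2 were at the edge of detection in all cultures. Ngfr, the neurotrophin receptor, measured 3.45, 4.73 and 3.03 scaled reads in wild-type and 3.67, 3.92 and 5.60 in c-kitCre. The values of the groups were mixed, on this scale and on the log2 scale. Stmn2, the axonal stathmin, measured 0.98, 0.89 and 0.41 scaled reads in wild-type and 2.74, 8.97 and 3.34 in c-kitCre. These groups did not overlap, but on the authors' log2 scale the other 5 cultures had 1 equal value and only c-kitCre culture 2 lay above it, and the mean of its group, 5.02, is 3.04 without it. No fold is given for these 2 genes, since a raw value of 1 to 6 merges 2 libraries in a way that is not known.

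In the fit across all genes, 3 of the 8 genes, Aplp1, Gap43 and Nes, passed an adjusted p under 0.05 (limma), all higher in c-kitCre, where 35.5% of the 24151 genes tested passed, 16.2% higher and 19.3% lower. The groups did not overlap for 4 of the 8, the same 3 and Stmn2, all with c-kitCre above, while 53.2% of genes did not overlap in either direction and 26.1% had c-kitCre above and 27% below. Of all calls, 45.6% were higher in c-kitCre, and this share was 24.7% with median centring over all genes and 59.2% with centring over genes averaging at least 50 scaled reads. Because the genes were chosen with this contrast known, nothing is read from these counts.

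**Figure D3:**
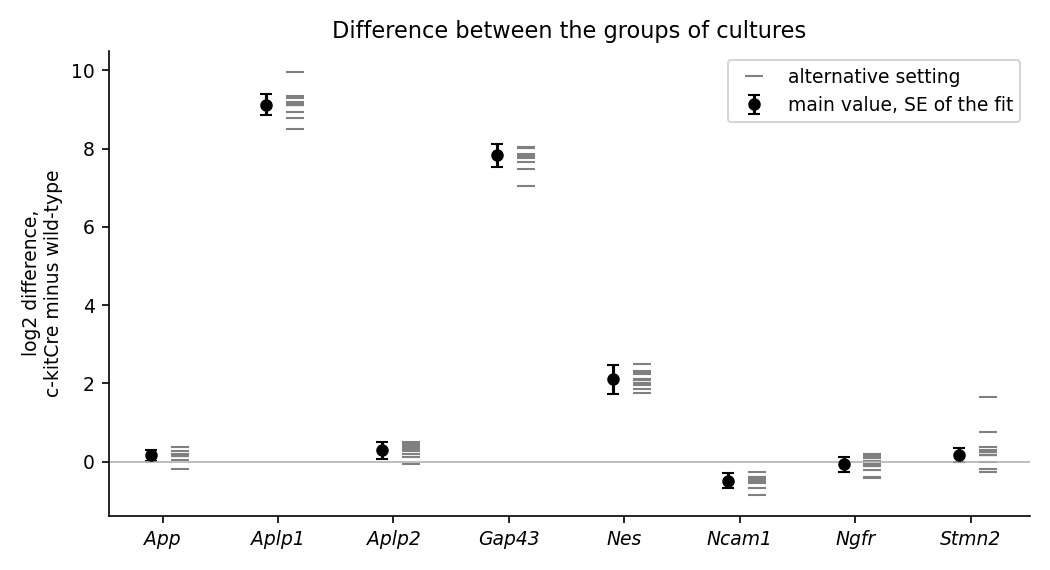
Log2 difference of each gene, c-kitCre minus wild-type; black points are the main values with the SE of the limma fit (n = 3 per group), grey dashes the same difference under the alternative settings. Aplp1 (9.13), Gap43 (7.83) and Nes (2.11) stay above 0 under all of them, while App, Aplp2, Ngfr and Stmn2 lie on both sides of 0 depending on the setting.

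Other genes were compared with these patterns by the root-mean-square distance of their log2 values over the 6 cultures after each gene's mean was taken out, among 11394 named genes averaging at least 50 scaled reads. The 3 nearest to Aplp1 were Snora73a (distance 0.10), Fstl3 (0.11) and Snora73b (0.19), where the median gene lay 4.67 away. Snora73a was listed at 0 in all wild-type cultures and measured 2154, 2658 and 1737 scaled reads in the c-kitCre cultures. The 3 nearest to Gap43 were Kctd16 (0.17), Acot1 (0.19) and Usp13 (0.21), and Kctd16 measured 1339, 1018 and 911 in c-kitCre against at most 1.79 in wild-type. Few genes came within 0.5 of these patterns, 12 for Aplp1 and 40 for Gap43. The patterns of App and Aplp2 were common, with 5528 and 4605 genes within 0.5. The difference between the groups enters this distance, and it was known when the members were chosen. These counts thus largely restate the size of that difference, and nothing is read from them. The nearest to App were Rarg (0.03), Zfp317 (0.03) and Thoc2 (0.04), and the nearest to Aplp2 were Srp72, Rpl18 and 7SK (each 0.03).

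The secretases that cut the family were measured in both groups, and 4 of 12 rose and 1 fell in c-kitCre (41.7% called, against 35.5% of all genes, with a median log2 difference of 0.17 against 0.04). Adam9, a metalloprotease with alpha-secretase activity, rose from 5543 ± 789 to 12505 ± 1059 scaled reads (SD, n = 3, limma adjusted p = 0.00208). Bace2, a relative of beta-secretase, rose from 8.70 ± 10.4 to 109 ± 9.58 (adjusted p = 0.0052, limma), and its wild-type mean is 2.68 without wild-type culture 1. Aph1b and Aph1c, scaffold subunits of gamma-secretase, rose from 256 ± 19.4 to 493 ± 57.8 and from 25.5 ± 8.15 to 117 ± 26.3. These are close copies in the mouse, and their reads may be shared. The count that fell was 0 to 1 with 1 culture left out, and 0 without the filter on low values. Bace1, the beta-secretase, measured 1993 ± 724 and 2053 ± 162 scaled reads, and Adam10, a main alpha-secretase, 1514 ± 134 and 1539 ± 286, in wild-type and c-kitCre, and were named after their values were seen.

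Of 30 adaptors, trafficking proteins and clearance factors of the amyloid precursor protein, 6 rose, 7 fell and 17 did not pass (43.3% called, against 35.5% of all genes; median log2 difference 0.06). Sorl1, a sorting receptor that binds the protein, rose from 10.5 ± 4.07 to 208 ± 62.1 scaled reads, and Apba1, an adaptor of the Mint family, from 1.82 ± 1.09 to 65.4 ± 19.8 (limma adjusted p = 0.000711 and 0.00039). The wild-type mean of Apba1 is 1.19 without culture 1. Numbl, an adaptor related to Numb, rose from 496 ± 11.2 to 1616 ± 117. Ide, the insulin-degrading enzyme, which also degrades amyloid beta, fell from 4504 ± 391 to 1243 ± 77.6 (limma adjusted p = 0.000178). The number that fell was 3 to 8 with 1 culture left out, and 12 with median centring over all genes.

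Of 16 tested neurotrophins and partners of Ngfr, 5 rose, 3 fell and 8 did not pass (50% called, against 35.5% of all genes; median log2 difference 0.29). Lingo1, a co-receptor of the Nogo receptor complex, rose from 0.63 ± 0.55 to 119 ± 28.6 scaled reads, and Rtn4, the Nogo gene, from 5496 ± 820 to 12471 ± 1412 (limma adjusted p = 0.000161 and 0.00293). Ntrk3, a receptor of the Trk family, fell from 20.3 ± 5.26 to 1.87 ± 0.51. Bdnf, a neurotrophin that binds Ngfr, fell from 3374 ± 551 to 1759 ± 602 and was named after its values were seen. It was thus measured in all 6 cultures, while Ngfr stood at the limit of detection.

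In the list of growth cone and neurite outgrowth genes, 9 of 19 tested rose, 1 fell and 9 did not pass (52.6% called, against 35.5% of all genes; median log2 difference 0.83 against 0.04). Fez1, an adaptor of kinesin transport, rose from 520 ± 48.4 to 1577 ± 98.6 scaled reads, and Dpysl2, a microtubule-binding protein of axons also called CRMP2, from 3572 ± 501 to 9507 ± 722 (SD, n = 3, limma adjusted p = 0.000336 and 0.00087). Dclk1, a doublecortin-like kinase, rose from 3861 ± 89.5 to 7393 ± 533. Nrgn, a calmodulin-binding protein with the same binding motif as Gap43, rose from 1.61 ± 0.41 to 17.7 ± 4.40. The gene that fell, named for that reason, was Dpysl3, a relative of Dpysl2, from 16236 ± 86.6 to 8568 ± 889. The relatives of Stmn2 differed in level: Stmn1, the widely expressed stathmin, measured 1194 ± 21.7 and 1310 ± 434 in wild-type and c-kitCre, Stmn3 4.92 ± 3.47 and 3.48 ± 1.53, and Stmn4 3.28 ± 3.31 and 34.5 ± 13.7. Of these only Stmn4 passed the test (limma adjusted p = 0.00307), and its wild-type mean is 1.61 without wild-type culture 1. The relatives of Stmn2 and the next gene were chosen by name after their values were seen. Basp1, a growth cone protein that resembles Gap43 in its charge and membrane anchoring, measured 2459 ± 549 and 2992 ± 237 and did not pass.

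Of 11 tested genes of neural cell adhesion, 3 rose and 0 fell (27.3% called, below the 35.5% of all genes; median log2 difference 0.55). At an unadjusted p under 0.05 (limma) 0 were lower, and 1 fell with median centring over all genes. Gfra1, a co-receptor of glial-derived neurotrophic factor that can also signal through Ncam1, rose from 14.6 ± 6.25 to 275 ± 142 scaled reads (limma adjusted p = 0.00145). Fgfr1, a fibroblast growth factor receptor that binds Ncam1, rose from 2356 ± 299 to 7057 ± 1710 (limma adjusted p = 0.00209). Nrcam rose from 23.4 ± 9.46 to 76.8 ± 20.2 (limma adjusted p = 0.0199), a call that was lost with quantile normalization and without any 1 of wild-type cultures 2 and 3 and c-kitCre cultures 1 and 2. Ncam2, the only close relative of Ncam1, measured 3.36 ± 0.37 and 13.3 ± 10.2. St8sia4, which adds polysialic acid to Ncam1, measured at most 5.62 in any culture, and St8sia2, which does the same, did not pass the filter on low values. The last 3 genes were named after their values were seen.

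Of 13 intermediate filament genes, 2 rose and 2 fell (30.8% called, below the 35.5% of all genes; median log2 difference 0.19). The 2 that rose were the neurofilaments Nefl, from 6.45 ± 9.60 to 1904 ± 231 scaled reads, and Nefm, from 1.76 ± 1.48 to 323 ± 32.8 (limma adjusted p = 0.000257 and 6.99e-05). Their wild-type means are 0.91 and 0.95 without wild-type culture 1. The 2 that fell were Prph, the filament of peripheral neurons, from 127 ± 3.69 to 28.1 ± 5.24, and Krt8, a keratin of simple epithelia, from 173 ± 202 to 4.60 ± 1.32, where the wild-type mean is 56.5 without wild-type culture 1. Nes needs a partner such as Vim to form filaments. Vim measured 110775 ± 39724 scaled reads in wild-type and 164512 ± 45192 in c-kitCre (SD, n = 3), did not pass, and it was named after its values were seen.

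**Figure D4:**
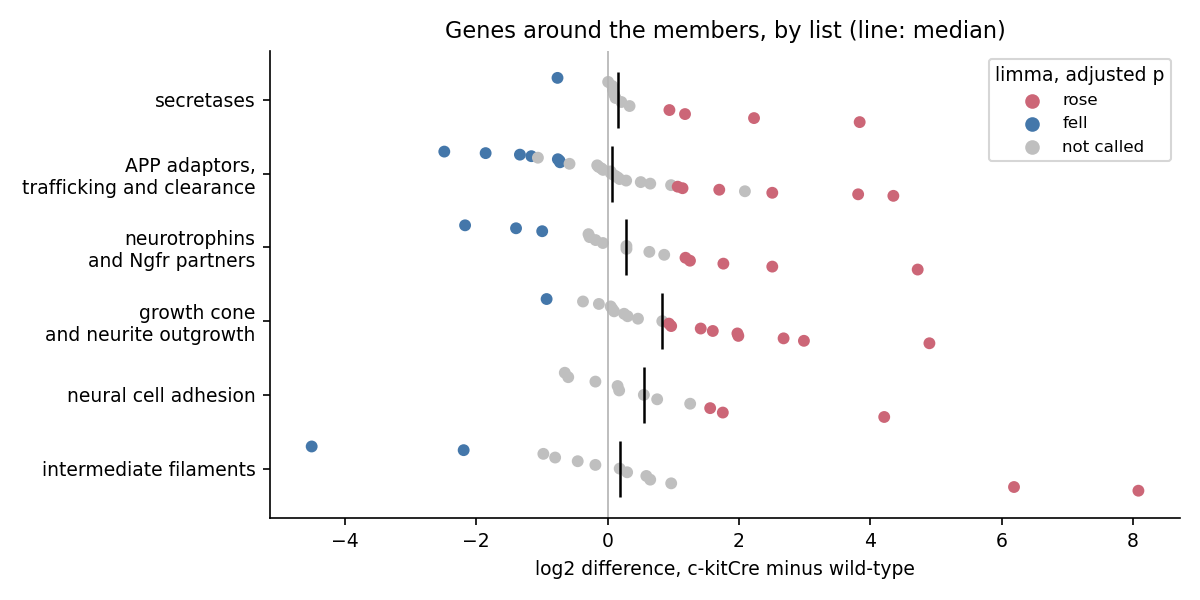
Log2 difference, c-kitCre minus wild-type, of every tested gene in the 6 lists; red points rose and blue points fell at an adjusted p under 0.05 (limma, n = 3 per group), grey points did not pass, and the black line is the median of the list. The medians lie between 0.06 and 0.83, and the neurofilaments Nefl (8.08) and Nefm (6.19) lie farthest to the right.

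Markers of neurons and of glia were read beside Aplp1, Gap43 and Nes. Of 19 neuron markers in the table, 17 of them tested, 6 rose and 0 fell (35.3% called, against 35.5% of all genes; limma, with 0 lower at an unadjusted p under 0.05). Their summed level went from 221 to 315 scaled reads in the wild-type cultures to between 10259.5 and 11906 in the c-kitCre cultures. Most of that sum was Tubb3, a neuronal beta-tubulin, at 7843, 7924 and 7582 in c-kitCre cultures 1, 2 and 3, together with Nefl. Gad1, an enzyme that makes the transmitter GABA, rose from 4.05 ± 2.41 to 692 ± 335 (SD, n = 3). The synaptic genes Snap25 and Syt1 rose from 4.60 ± 1.69 to 59.6 ± 55.3 and from 3.51 ± 3.27 to 24.7 ± 7.99. Other GABA and synaptic genes of the list did not pass. The log2 difference was 0.35 ± 0.42 (SE) for Gad2, a second GABA enzyme. It was 1.27 ± 0.45 for the synaptic gene Syp and -0.32 ± 0.37 for the synaptic gene Syn1, which was thus lower in c-kitCre on average. The c-kitCre mean of Snap25 is 27.6 without c-kitCre culture 2, and the wild-type mean of Syt1 is 1.61 without wild-type culture 1. The neuron-defining genes Rbfox3 and Elavl4, the noradrenergic and cholinergic genes Th, Dbh and Chat, and the glutamate transporter gene Slc17a6 stayed under 10 scaled reads in every culture. In these bulk samples, a change in the number of cells of a type and a change in RNA per cell cannot be told apart.

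Of 13 markers of Schwann cells, glia and the neural crest, 11 of them tested, 2 rose and 0 fell (18.2% called, below the 35.5% of all genes; limma, with 3 lower at an unadjusted p under 0.05). The summed level was 322 to 735 scaled reads in wild-type and 820 to 1393 in c-kitCre. Egr2 made up most of it, at 442, 97.1 and 90.6 in wild-type cultures 1, 2 and 3 and 1056, 502 and 997 in the c-kitCre cultures. Its wild-type mean, 210.01, is 93.9 without wild-type culture 1. The other gene that rose was Tfap2b, from 8.55 ± 4.09 to 49.9 ± 34.5, with 31.9 as the c-kitCre mean without culture 2. Sox10, the regulator that defines this lineage, measured 20.5, 23.3 and 30.4 in wild-type and 8.73, 3.79 and 17.3 in c-kitCre, and Foxd3, Cdh19 and Fabp7 stayed under 10 throughout. The part of neuron or glia markers in the differences of Aplp1, Gap43 and Nes was not tested.

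**Figure D5:**
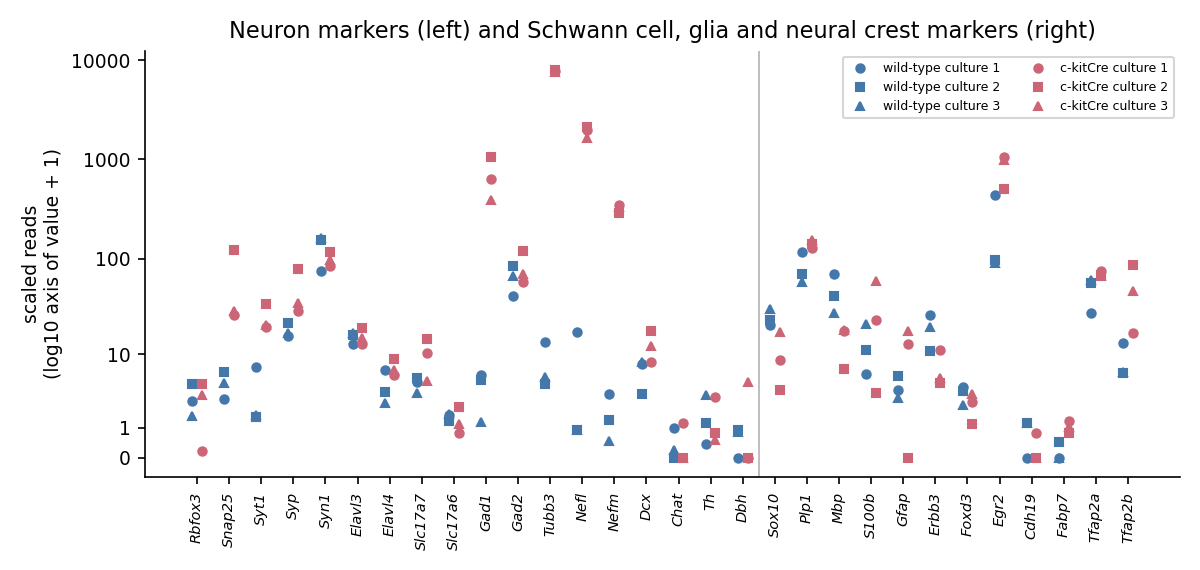
Scaled reads of neuron markers (left of the line) and markers of Schwann cells, glia and neural crest (right) in each culture, on a log10 axis of the value plus 1; blue is wild-type, red is c-kitCre, and symbols give the culture number. Tubb3, Nefl, Nefm and Gad1 lie far higher in c-kitCre, while Rbfox3, Elavl4 and Th lie under 10 in both groups.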

How the data were processed

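Total RNA was sequenced, per the labels' protocols, as paired reads of 100 bp after removal of ribosomal RNA. The submitters' processing notes name DESeq and mm10. For the aligner, the annotation and the use of strand, the name is not given in the sources used here. Raw and normalized columns stand for each of 6 cultures, per the file headers. The raw values, a deposited signal, are not whole numbers (7.98% of those above 0 were whole within 0.002) and were not tested as counts. Each normalized log2 value of the authors is the raw value multiplied by the culture's factor (0.825 to 1.52), on a log2 scale, less a constant per gene, as worked out from 8369 genes with raw values over 200, and low values level off at a floor. Near the floor the values do not follow this rule, and for a gene low in every culture the added constant, and so its log2 level, is uncertain. The authors' deposited fold is a signed score in a second table of 4528 genes, which holds 3 of the 8 genes. The way 2 libraries became 1 value per culture is not known, so single values carry no interval.

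The constant per gene was added back and a two-sided limma test (version 3.58.1, R 4.3.3; eBayes with a trend, no covariates, 4 residual degrees of freedom) was run on 24151 genes averaging at least 1 scaled read and not at the floor in all 6 cultures (10023 left out). Adjusted p-values are Benjamini-Hochberg over these genes. The fit was checked on simulated data. Of the gene IDs, 32874 matched GENCODE M21 and 1300 did not. Python 3.11.15 with numpy 2.4.6, pandas 2.3.3 and matplotlib 3.10.9 made the tables and figures. The members, the 6 lists and the marker lists were chosen with earlier results of these data known. The genes named are the members, up to 4 called genes with the smallest adjusted p in each list, the 3 genes nearest to App, Aplp1, Aplp2 and Gap43 in pattern, the markers, and the exceptions said in the text. Alternatives were other filters, pseudocounts of 1 and 5, quantile normalization, median centring over all or over abundant genes, scaling by summed raw value, a replicate block, leaving out each culture, and another gene length. Some genes counted in the lists are not reported here by name. The planned comparison of protein sequences was not analysed here.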

Additional observations from a re-analysis of the deposited data

How the results depend on the processing

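The log2 differences of Aplp1, Gap43 and Nes stayed above 0 under all 15 alternatives, from which nothing is read, since the genes were chosen on this contrast. Of 104 values of the 8 genes under the alternatives, 88 moved by less than the residual SD of the gene. Some of the 88 could not move. The replicate block leaves each difference unchanged by design. Leaving out a wild-type culture cannot move Aplp1 or Stmn2, whose wild-type log2 values are all equal. The count is therefore no measure of stability. With median centring over all genes the log2 differences became -0.19 for App, 8.77 for Aplp1, -0.064 for Aplp2, 7.47 for Gap43, -0.84 for Ncam1, -0.42 for Ngfr and -0.18 for Stmn2, 8612 genes were called lower in place of 4670, and 12 adaptors, 5 neurotrophin genes, 2 growth cone genes and 1 adhesion gene fell. That setting moves the median of all genes by construction. With centring over genes averaging at least 50 scaled reads, App became 0.37, Stmn2 0.38, and 5 adhesion genes rose. On log2 of scaled reads plus 1, Aplp1 became 9.96 and Stmn2 1.65, and with plus 5, Aplp1 became 8.51, Gap43 7.04 and Stmn2 0.75, since the pseudocount takes the place of the floor. With a minimum mean of 10 scaled reads, Ngfr and Stmn2 were left out and give no value. With quantile normalization Ngfr became -0.40 and Stmn2 -0.27. Without a filter, which adds genes to the adjustment, 0 secretases and 4 adaptors fell. With 1 culture left out, 2495 (without wild-type culture 2, with 2551 without wild-type culture 3) to 4175 genes were called higher, 0 to 1 secretases and 3 to 8 adaptors fell. The culture number as a replicate block gave 3703 genes higher and 4422 lower in place of 3907 and 4670, and the numbers were not taken as pairs, since same-numbered cultures correlated at 0.12, -0.01 and 0.19 in their deviations from the group means. Levels per kilobase of App and Aplp2 fell with the union of exons, to 483 and 714 in wild-type and 543 and 871 in c-kitCre, because those lengths are greater. Raw values of a few reads limit Ngfr, Stmn2 and the wild-type levels of Aplp1 and Gap43.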

Other observations

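Wild-type culture 1 was the wild-type culture nearest to the c-kitCre mean, on the log2 scale, for App, Aplp2, Nes and Ncam1, while all wild-type cultures tied at the floor for Aplp1. For Gap43 the wild-type values lie near the floor, and the nearest was culture 1 on the log2 scale and culture 2 in scaled reads. Wild-type culture 1 was also the nearest in 43.3% of 13348 genes averaging at least 50 scaled reads, against 24.1% for culture 2 and 32.6% for culture 3. In 3 genes of the lists, chosen after their values were seen, wild-type culture 1 likewise lay nearest to the c-kitCre cultures. Dab2, an endocytic adaptor that binds the tail of the amyloid precursor protein, measured 4014, 726 and 690 scaled reads in wild-type cultures 1, 2 and 3 and 5826, 5261 and 5080 in the c-kitCre cultures (limma adjusted p = 0.0559). Crmp1, a relative of Dpysl2, measured 123, 10.7 and 13.6 in wild-type and 215, 222 and 189 in c-kitCre (limma adjusted p = 0.0495). Itm2b, which binds the amyloid precursor protein and limits its cleavage, measured 5877, 3168 and 3262 in wild-type and 8552, 10436 and 7310 in c-kitCre (limma adjusted p = 0.022).

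Snora73b, like Snora73a a small nucleolar RNA, was listed at 0 in all wild-type cultures and measured 2040, 2367 and 1471 scaled reads in c-kitCre cultures 1, 2 and 3. The pair are close copies of each other, and how reads were split between them is not known.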
